A study of Mus musculus with 6 samples.

Results

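Nestin and 9 transcription factors known from the enteric neural crest were followed on arrays of enterospheres, free-floating spheroids grown from the dispersed muscle coat of newborn mouse intestine. The 10 genes, Nes, Sox2, Sox11, Foxd3, Tfap2a, Tfap2b, Zeb2, Phox2a, Hand2 and Tlx2, were chosen by name and taken where the annotation of a transcript cluster, the probes summarised for 1 locus, was exactly that symbol. Each of the 10 had 1 such cluster, out of 19938 genes with a cluster of their own. Differentiating enterospheres (3 arrays) were grown for 9 days in proliferation medium with EGF and FGF and for the last 2 days in medium without these factors but with ascorbic acid-2-phosphate. Proliferating enterospheres (3 arrays) were kept in proliferation medium for all 11 days. All cultures came from newborn wild-type C57BL/6 mice, and no transgene or sorting for neural cells was used, so other cells of the gut wall were part of each sample. The labels state 3 pooled mice per sample, whereas the methods of the study state 2 pups of a litter per experiment. For the proliferation medium the labels give EGF at 10 ng/mL and FGF at 20 ng/mL, whereas the methods give 20 ng/mL for both. The removal of both growth factors and the addition of ascorbic acid-2-phosphate cannot be told apart in this design.

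The enteric nervous system arises from neural crest cells that enter the gut, migrate along it and form neurons and glia. Sox2 and Foxd3 are factors of the crest-derived progenitor and glial state, Tfap2a and Zeb2 act when the crest forms and leaves the neural tube, and Phox2a, Hand2 and Tlx2 belong to the program of autonomic and enteric neurons. Nestin is an intermediate filament protein of neural stem and progenitor cells, and it is also made by some glial, muscle and vessel cells. Whether such genes moved when enterospheres were changed from proliferation to differentiation medium is what the comparison of differentiation with proliferation measures.

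Of the 10 genes, 1 rose in differentiating enterospheres, 0 fell and 9 did not pass the test, whereas among all genes 5.91% passed, 2.94% higher and 2.97% lower. The log2 values were fitted with limma, p-values were adjusted after Benjamini and Hochberg across the 35556 clusters (4.1% of which passed), and an adjusted p below 0.05 counted as a rise or a fall. At an unadjusted p under 0.05, 6 of the 10 lay higher in differentiation and 0 lay lower, against 9.49% higher and 9.64% lower, or 19.1% in all, of all genes. With the methods' t-test, an unpaired test without correction, 4 of the 10 had an unadjusted p under 0.05, all higher, where 19.5% of all genes did (10.2% higher and 9.28% lower). In 6 of the 10 every differentiation array lay above every proliferation array, which held for 14.6% of all genes, and in 1, Hand2, every differentiation array lay below (12.9% of all genes, and 27.5% for both directions). The log2 fold changes, given throughout as differentiation minus proliferation, had a median of 0.34 over the 10 genes and of 0.02 over all genes. In mixed cultures, a change in the number of cells that make an RNA and a change in RNA per cell cannot be told apart.

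**Figure D1:**
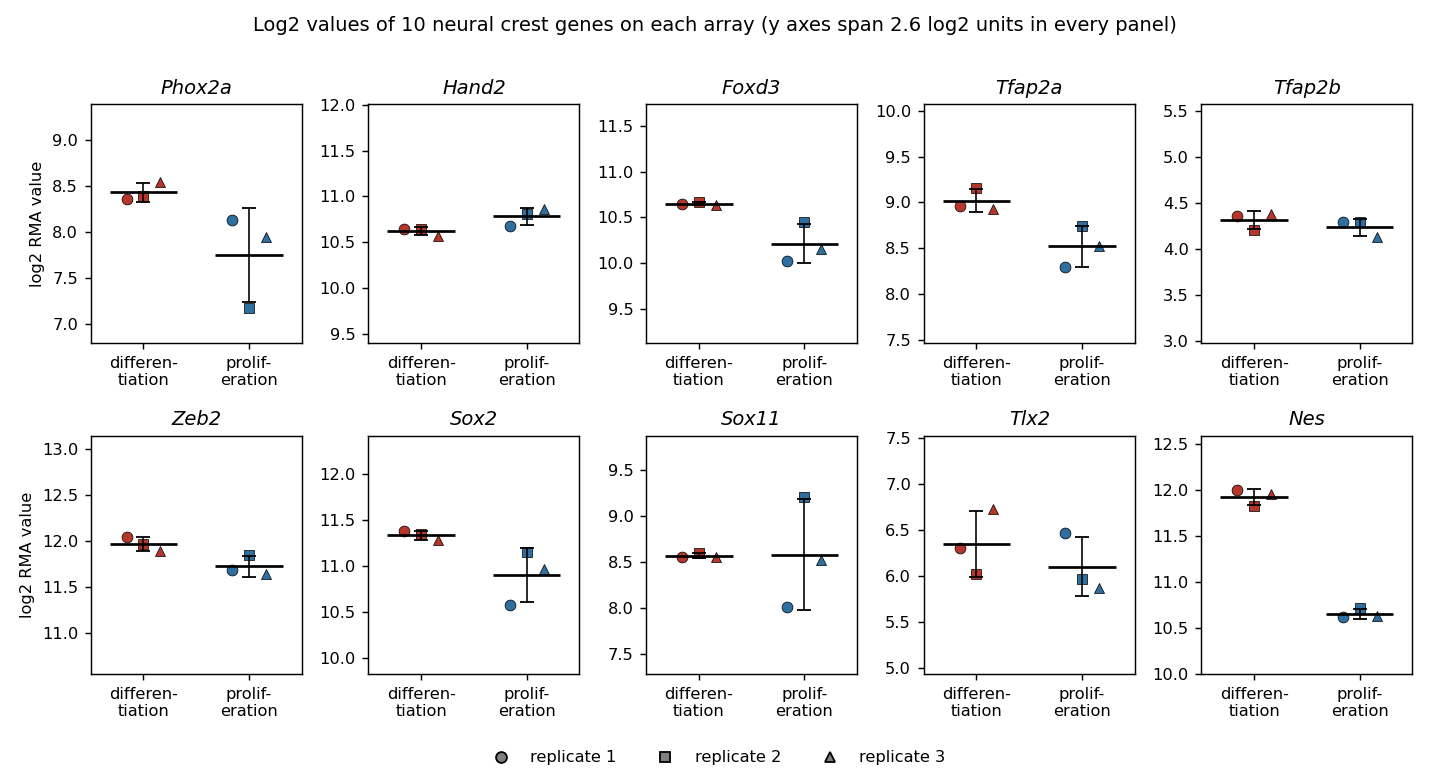
Each panel shows the log2 RMA values of 1 gene, with differentiation arrays in red on the left and proliferation arrays in blue on the right, and marker shapes for replicate numbers. Lines are group means and bars the SD of 3 arrays. Nes is the gene whose groups stand farthest apart, with 1.11 log2 units between the nearest arrays, while Sox11 and Phox2a spread most in proliferation.

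Nes, which encodes nestin, rose 2.41-fold in differentiating enterospheres (95% interval 2.1 to 2.78). Its log2 values were 12.00, 11.83 and 11.96 on the differentiation arrays, against 10.62, 10.72 and 10.63 on the proliferation arrays. The means were 11.93 ± 0.09 in differentiation and 10.65 ± 0.06 in proliferation (SD, n = 3), so that the arrays of a group lay within 0.17 log2 units of each other. The difference was thus 1.27 log2 units with a standard error of 0.09, and limma's adjusted p was 0.00206. It passed with each array left out in turn, with adjusted p from limma between 0.00524 and 0.0253. For a single gene, 3 arrays against 3 allow an exact two-sided permutation p of no less than 0.1, which is the value that Nes reached.

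The stretch before the start of Nes is printed because Nes was the gene that passed, beside those of Foxd3, which lay higher without passing, and of Hand2, which lay lower. The 250 bases before the RefSeq start are given 5′ to 3′ on the plus strand of GRCm38.p6, at chr3:87970843-87971092 for Nes, chr4:99656049-99656298 for Foxd3 and chr8:57320733-57320982 for Hand2. Capitals mark matches, on either strand, to an E-box (CANNTG, bound by bHLH proteins such as Hand2) or to a GC box (GGGCGG, bound by Sp1 and its relatives).
Nes: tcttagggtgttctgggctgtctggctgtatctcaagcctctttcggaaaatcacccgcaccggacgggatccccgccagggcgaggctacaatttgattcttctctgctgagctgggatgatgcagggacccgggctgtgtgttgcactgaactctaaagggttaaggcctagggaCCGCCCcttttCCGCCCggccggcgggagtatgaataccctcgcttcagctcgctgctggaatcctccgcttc
Foxd3: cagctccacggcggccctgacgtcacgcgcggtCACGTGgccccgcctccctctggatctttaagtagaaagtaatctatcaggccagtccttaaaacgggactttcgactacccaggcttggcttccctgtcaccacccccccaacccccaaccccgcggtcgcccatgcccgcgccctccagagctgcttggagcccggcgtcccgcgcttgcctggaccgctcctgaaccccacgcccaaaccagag
Hand2: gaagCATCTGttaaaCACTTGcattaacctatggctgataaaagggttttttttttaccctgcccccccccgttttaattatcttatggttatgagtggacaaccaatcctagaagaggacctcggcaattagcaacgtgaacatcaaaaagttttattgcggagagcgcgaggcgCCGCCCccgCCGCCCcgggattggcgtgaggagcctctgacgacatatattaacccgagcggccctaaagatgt
Nes held 2 GC boxes, beginning at positions -73 and -62 relative to the start, and no E-box. Foxd3 held 1 E-box, at -217, and no GC box, and Hand2 held 2 of each. Over 32851 RefSeq start sites, 66.2% of such windows held an E-box and 32.7% a GC box, so both motifs are common. The ZEB half-site CACCT (46% of windows), the AP-2 motif GCCNNNGGC (13.7%) and the SOX motif AACAAT (9.42%) were searched on both strands too and had no match in these 3 windows. Among the 9 of the 10 genes for which a promoter was matched, 4 held an E-box, 4 the ZEB half-site, 2 the AP-2 motif, 7 a GC box and 0 the SOX motif in at least 1 window. An E-box can overlap the ZEB half-site, and a match is a stretch of letters, not a measured binding site.

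The genes whose pattern over the 6 arrays was closest to that of Nes were St18, Nrk and Matn2, by the root mean square difference of values centred on each gene's mean. St18, a zinc finger transcription factor, differed from Nes by 0.03 on the log2 scale. Nrk, a protein kinase, differed by 0.06, and Matn2, the matrix protein matrilin-2, by 0.09. Their log2 fold changes were 1.31, 1.20 and 1.36. These genes were picked for likeness, so their changes carry no test of their own here.

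Nestin forms filaments together with other intermediate filament proteins. A chosen list of 9 such genes, without keratins, was measured. Of these, 1 rose, 0 fell and 8 did not pass, with a median log2 fold change of -0.14. Gfap, the filament protein of astrocytes and enteric glia, rose 2.24-fold, with 9.33, 9.51 and 9.59 in differentiation, against 7.88, 8.53 and 8.53 in proliferation (log2 fold change 1.16, standard error 0.19, adjusted p = 0.0218 from limma). Its call ended without proliferation replicate 3 or any single differentiation array (adjusted p from 0.0608 to 0.0829). Vimentin, a usual partner of nestin, had a log2 fold change of 0.15 (95% interval -0.02 to 0.33, adjusted p = 0.384). The lowest value of the list was -0.43, that of Nefh, the heavy neurofilament chain, which did not pass (adjusted p = 0.388). At an unadjusted p under 0.05 with limma, 2 of the 9 genes lay higher, Gfap included, and 1 lay lower.

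Sox2 is an HMG-box factor that keeps neural progenitors undifferentiated and is also found in enteric glia. It had log2 values of 11.38, 11.35 and 11.28 in differentiation, against 10.58, 11.16 and 10.97 in proliferation. The groups did not overlap, but the nearest arrays lay only 0.12 apart and the proliferation arrays spanned 0.58. Differentiation was higher by 0.43 on the log2 scale (standard error 0.15, 95% interval 0.07 to 0.79), which did not pass (adjusted p = 0.22 from limma). Without proliferation replicate 1, the lowest array, the difference was 0.27. Its closest relatives, Sox1 and Sox3, had log2 fold changes of 0.27 and -0.19 and did not pass either (adjusted p = 0.411 and 0.668).

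Sox11 belongs to the SoxC group, whose members act in newly formed neurons. Its log2 values were 8.55, 8.60 and 8.55 in differentiation, against 8.01, 9.21 and 8.52 in proliferation. The differentiation arrays lay within 0.05 of each other and inside the range of the proliferation arrays, which was 1.20. Its log2 fold change was -0.01 with a 95% interval of -0.67 to 0.64, so that neither a 1.5-fold increase nor a 1.5-fold decrease lay outside it (adjusted p = 0.991). Without proliferation replicate 2 it was 0.30, and without proliferation replicate 1 it was -0.30, and neither passed (adjusted p = 0.477 and 0.538). The other SoxC genes had narrower intervals: Sox4 had a log2 fold change of 0.05 (-0.20 to 0.30), and Sox12 one of -0.26 (-0.46 to -0.06), which did not pass (adjusted p = 0.178).

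Foxd3, a forkhead factor that maintains crest progenitors and acts in the choice of the glial fate, had log2 values of 10.65, 10.67 and 10.63 in differentiation. In proliferation they were 10.03, 10.45 and 10.16, all lower by at least 0.18. Limma gave a log2 fold change of 0.44 (standard error 0.12, 95% interval 0.15 to 0.72), a fold of 1.35 that did not pass (adjusted p = 0.12). It passed without proliferation replicate 2, the highest of its proliferation arrays, where the log2 fold change was 0.56 (adjusted p = 0.0361). Of the relatives, Foxd1, Foxd2 and Foxd4 had log2 fold changes of 0.20, -0.15 and -0.02, and none of these 3 passed.

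Tfap2a and Tfap2b encode AP-2 alpha and AP-2 beta, factors of early neural crest and of its sympathetic derivatives. Tfap2a had log2 values of 8.96, 9.16 and 8.93 in differentiation, against 8.30, 8.74 and 8.52 in proliferation. Its groups did not overlap, and the fitted log2 fold change was 0.49 (standard error 0.13, 95% interval 0.18 to 0.81), the smallest adjusted p of the 9 factors at 0.112 from limma. When both the limma fit and the adjustment ran over clusters with 1 gene symbol alone, Tfap2a passed with an adjusted p of 0.0487. Its unadjusted p from limma was 0.0045 there, against 0.00785 in the main fit. Tfap2b lay below the median cluster mean of 6.15 on all arrays, at 4.36, 4.21 and 4.38 in differentiation and at 4.29, 4.29 and 4.13 in proliferation. No detection call was used, and its log2 fold change was 0.08 (95% interval -0.14 to 0.30). It was 0.03 when proliferation replicate 3 was left out, 0.05 when differentiation replicate 3 was, and 0.13 when differentiation replicate 2 was. The other AP-2 genes, Tfap2c, Tfap2d and Tfap2e, had log2 fold changes of -0.08, 0.02 and 0.03 and did not pass.

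Zeb2, a zinc finger repressor of E-cadherin whose loss in people causes a syndrome with missing enteric ganglia, had log2 values of 12.04, 11.97 and 11.89 in differentiation. They were 11.68, 11.85 and 11.64 in proliferation, and only 0.05 separated the groups. With a log2 fold change of 0.25, it did not pass (standard error 0.09, adjusted p = 0.255). Its paralog Zeb1 had 10.67, 10.84 and 10.75 in differentiation, against 10.55, 10.51 and 10.45 in proliferation. For Zeb1 the log2 fold change was also 0.25 (95% interval 0.05 to 0.45), and it did not pass (adjusted p = 0.198).

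Phox2a is a homeodomain factor of autonomic and enteric neurons that acts on the genes for noradrenaline synthesis. Its log2 values were 8.36, 8.39 and 8.55 in differentiation, against 8.13, 7.17 and 7.95 in proliferation. The groups did not overlap, and proliferation replicate 2 lay far below its group. Its log2 fold change, 0.68 (95% interval 0.11 to 1.26), was the largest of the 9 factors, but with a standard error of 0.24 it did not pass (adjusted p = 0.228 from limma). Without proliferation replicate 2 it was 0.39 (adjusted p = 0.162).

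Hand2, a bHLH factor needed for the terminal differentiation of enteric neurons, had the lowest fold change of the 10 genes. Its log2 values were 10.65, 10.65 and 10.57 in differentiation, against 10.68, 10.81 and 10.86 in proliferation. The nearest arrays of the groups lay 0.03 apart. The difference, -0.16 log2 units with a standard error of 0.08, did not pass (adjusted p = 0.432 from limma), and its 95% interval, -0.36 to 0.04, left out a change of 1.5-fold either way. Hand1, at 8.54, 8.76 and 8.53 in differentiation and 8.81, 8.01 and 8.77 in proliferation, had a log2 fold change of 0.08 and did not pass.

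Tlx2, also called Hox11L1, is a homeobox gene of enteric neurons whose loss in mice gives too many of them in the colon. It had log2 values of 6.30, 6.02 and 6.73 in differentiation, against 6.47, 5.96 and 5.87 in proliferation, close to the median cluster mean. The groups overlapped, and the SD was 0.36 in differentiation and 0.33 in proliferation. The log2 fold change was 0.25 (95% interval -0.29 to 0.78, adjusted p = 0.679). Leaving out replicate 3 gave 0.06 (differentiation) or 0.13 (proliferation), and the value was 0.41 without differentiation replicate 2 and 0.44 without proliferation replicate 1. Tlx1 and Tlx3 had 0.17 and 0.08 and did not pass. Among all 14 relatives measured, 0 passed limma's adjusted test, and at an unadjusted p under 0.05 Zeb1 lay higher and Sox12 lower with limma, while the methods' t-test found 1 higher and 1 lower.

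**Figure D2:**
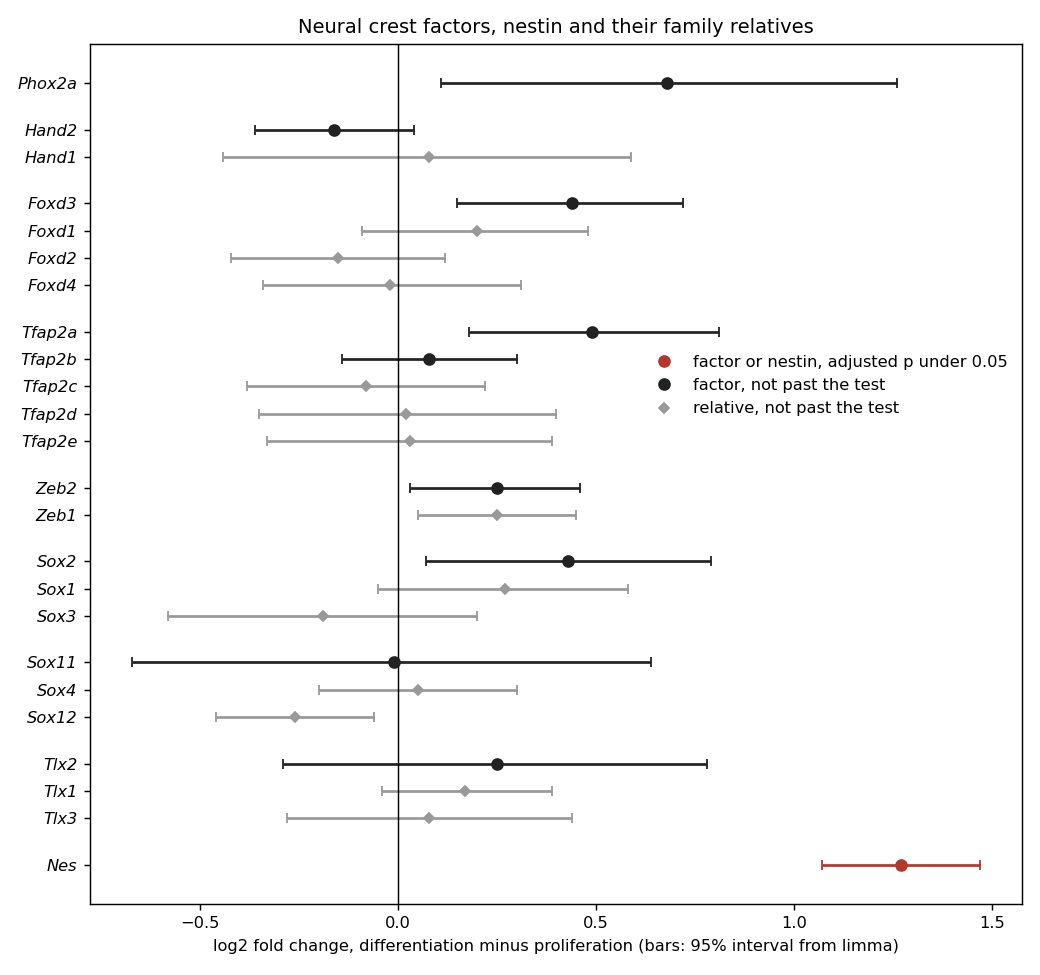
Points are log2 fold changes, differentiation minus proliferation, of the 10 genes (circles) and 14 family relatives (diamonds), grouped by family, and bars are 95% intervals from limma with 3 arrays per group. Nes, in red, is the gene past the test, and its interval of 1.07 to 1.47 lies to the right of 1, while the interval of Sox11 runs from -0.67 to 0.64.

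The arrays of a group did not spread equally for these genes. In 8 of the 10 the SD was larger in proliferation, which held for 54.6% of all genes, and its median over the 10 was 0.08 in differentiation and 0.22 in proliferation. Over all genes the median SD was 0.11 in both groups. The larger SD in proliferation was not particular to the 10 genes. It held for 10 of 12 enteric glia, 19 of 23 neuronal and 22 of 29 other enteric neural crest genes. It also held for 15 of 15 mitotic genes, but for 2 of 8 epithelial genes. Sox2, Foxd3, Tfap2a and Sox11 had the same order on the proliferation arrays, with replicate 2 highest, replicate 3 next and replicate 1 lowest. Nes had this order too, within a range of 0.11 log2 units. The share of all genes with this order was not counted. Phox2a had replicate 2 lowest. Gene lists for the cells in these cultures moved with the same arrays. Proliferation replicate 2 was the lowest proliferation array for 20 of 23 measured neuronal markers and the highest for 15 of 15 mitotic genes. Its low place was not particular to neuronal markers. It was also lowest for 6 of 6 interstitial cell of Cajal, 7 of 10 fibroblast and 17 of 29 other enteric neural crest genes. Among 12 enteric glia genes it was the highest for 7 and the lowest for 2. Among all 19938 genes it was the lowest for 8422 and the highest for 5917. The mean log2 value of the neuronal markers was 9.19, 9.24 and 9.10 in differentiation, against 9.00, 8.70 and 9.13 in proliferation. That of the mitotic genes was 6.91, 7.17 and 7.04 in differentiation, against 8.73, 9.51 and 9.02 in proliferation. The part of these differences between cultures in the values of Nes, Sox2, Foxd3, Tfap2a, Sox11 and Phox2a was not tested.

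**Figure D3:**
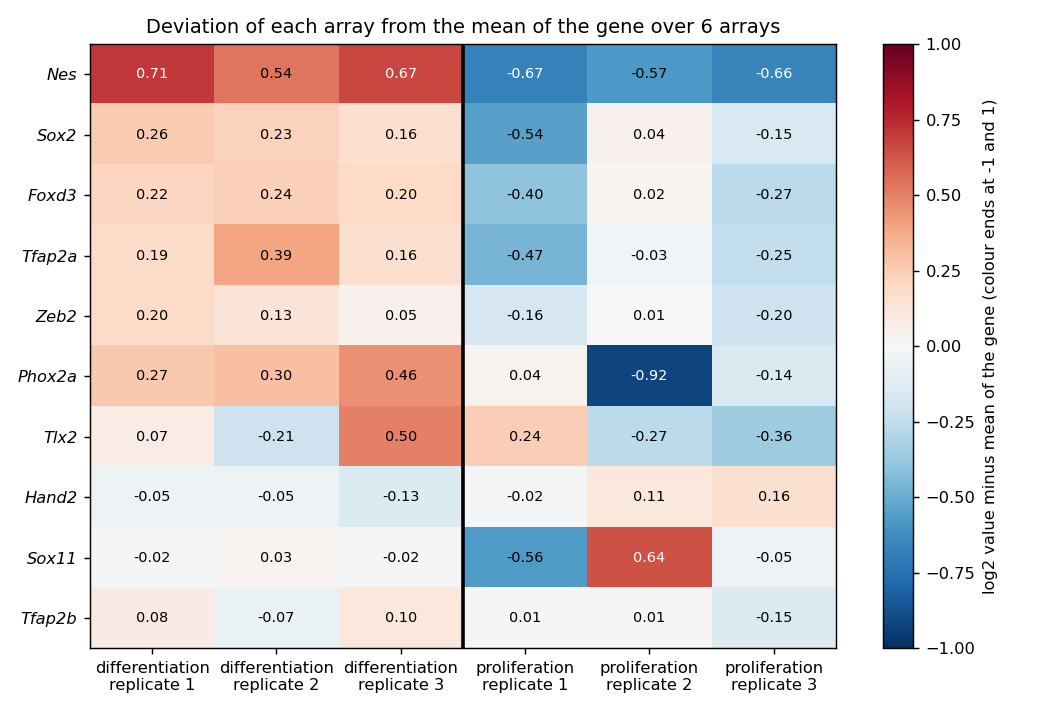
Rows are the 10 genes and columns the 6 arrays, and each cell gives the log2 value minus the mean of that gene over the 6 arrays. Nes is above its mean on the 3 differentiation arrays (0.54 to 0.71) and below it on the 3 proliferation arrays (-0.67 to -0.57). On proliferation replicate 2, Sox11 stands at 0.64 and Phox2a at -0.92.

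Other genes of the enteric neural crest and its progenitors did not share 1 direction. Among 29 on the array, 3 rose and 1 fell, while 25 did not pass, with a median log2 fold change of 0.02. Ngfr, the p75 neurotrophin receptor used to isolate crest cells from gut, had 12.31, 12.25 and 12.18 in differentiation, against 11.57, 11.34 and 11.46 in proliferation. It rose 1.73-fold (log2 fold change 0.79, standard error 0.09, adjusted p = 0.00764), and its call ended without differentiation replicate 1 (adjusted p = 0.0561). The tetraspanin Cd9 rose by 0.58 and the adhesion molecule L1cam by 0.41, while the transcription factor Ets1 fell by 0.42 on the log2 scale (limma's adjusted p = 0.0156, 0.0304 and 0.0413). The call of Cd9 ended without proliferation replicate 3 or any one of the differentiation arrays, and those of L1cam and Ets1 with any 1 array left out. Of the 29 genes, 0 passed without differentiation replicate 1. With 1 of the remaining differentiation arrays or proliferation replicate 3 left out, 1 passed, and without replicate 1 of proliferation, 2 passed.

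More markers of enteric glia, a list that also holds Foxd3 and again Gfap, rose than fell. Among the 12 on the array, 5 rose and 2 fell, with a median of 0.40 on the log2 scale. Kcna1, a potassium channel subunit, rose 4.29-fold and Entpd2, an ectonucleotidase of enteric glia, rose 2.49-fold (limma's adjusted p = 0.0141 and 0.00765). Fabp7, which carries fatty acids in glial progenitors, had a log2 fold change of -1.07 and fell (adjusted p = 0.0203). The other fall was that of S100b, which the study calls a common marker of glia, at -0.74 (limma's adjusted p = 0.026). The count of 7 dropped to 1 when differentiation replicate 1 was left out, which ended the calls of Kcna1, Entpd2, Fabp7 and S100b. It dropped to 3 when replicate 3 of either group was left out. The mean of the list lay between 10.45 and 10.54 in differentiation and between 9.95 and 10.07 in proliferation, and its part in the rise of Nes was not tested.

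Of 23 neuronal markers, 3 rose, 0 fell and 20 did not pass, with a median of 0.16. Tubb3, the neuronal class III beta-tubulin, Gap43, a protein of growing axons, and Calb2, the calcium-binding protein calretinin, rose by 0.98, 0.69 and 0.69 on the log2 scale (adjusted p = 0.0207, 0.00808 and 0.0283). The count was 1, Gap43, without replicate 1 of either group or differentiation replicate 2. A list of 11 genes covered catecholamine synthesis and transport, which Phox2a and Hand2 help control in sympathetic neurons. It also held some transcription factors. Of the 11 genes, 1 rose and 10 did not pass. The increase was that of Ddc, the decarboxylase that makes dopamine and serotonin, by 0.78 (adjusted p = 0.0153). Without proliferation replicate 1 a second gene passed (2 of 11), and that gene fell. The call of Ddc ended when proliferation replicate 3 or differentiation replicate 1 was left out (adjusted p between 0.0505 and 0.0672). The list was dim: 9 of the 11, Ddc included with a mean of 6.07, lay below the median cluster mean. Th and Dbh, the enzymes of the pathway that mark noradrenergic cells, were among these 9 and did not pass.

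**Figure D4:**
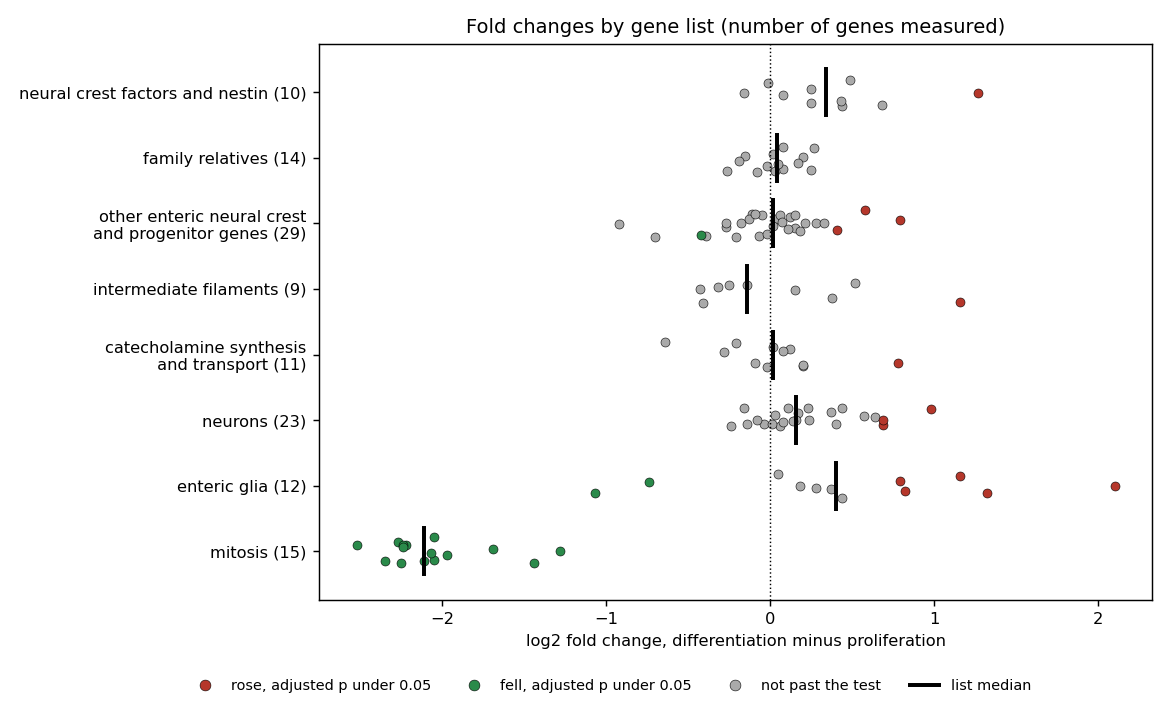
The horizontal axis is the log2 fold change of each gene (differentiation minus proliferation, 3 arrays per group) and the rows are the lists, with the number measured in brackets. Genes past limma's adjusted threshold of 0.05 are red where they rose and green where they fell, black bars are list medians and the vertical scatter carries no value. The 10 neural crest genes have a median of 0.34, beside 0.40 for enteric glia and -2.11 for mitosis.

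The 15 mitotic genes, listed because progenitors in these cultures divide, all fell, with a median of -2.11. Mki67, the Ki-67 antigen of cycling cells, stood at -2.35 (limma's adjusted p = 0.00406), while Nes lay higher on the same arrays. Markers of other gut wall cells were checked because nestin is made outside the nervous system too. Of 10 smooth muscle genes 4 rose, 1 fell and 5 did not pass, with Tagln (transgelin) and Actg2 (enteric smooth muscle actin) at log2 fold changes of 1.44 and 1.22. The gene that fell was Smtn (smoothelin), at -0.83 (limma's adjusted p = 0.0142). The mean of the list lay between 7.61 and 7.75 in differentiation and between 7.24 and 7.42 in proliferation. Without differentiation replicate 1 the count of 5 was 2, and without proliferation replicate 3 it was 3. Of 10 fibroblast genes 1 rose (Dpt, the matrix protein dermatopontin, by 1.20), and of 6 genes of interstitial cells of Cajal 1 fell, Ano1, a chloride channel of these cells. That count was 4 without proliferation replicate 2, and it was 0 without differentiation replicate 1. The median log2 fold change of these 6 genes was -0.56, and 0 of them lay above 0. With limma 5 of the 6 lay lower at an unadjusted p under 0.05, and with the methods' t-test 3 did. Of 9 endothelial, 10 macrophage, 8 epithelial and 6 mesothelial genes, 0 passed limma's adjusted test, except that 1 macrophage gene passed without proliferation replicate 2. At an unadjusted p under 0.05, limma had 1 endothelial and 1 macrophage gene lower (Emcn and Lyz2), and the methods' t-test had 1 other gene of each list higher. Of these 4 lists, 7, 9, 6 and 5 genes lay below the median cluster mean. The part of smooth muscle cells in the rise of Nes was not tested.

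Arrays of the same group correlated at 0.988 to 0.995, and arrays of different groups at 0.983 to 0.989. The labels give the tissue as newborn enteric nervous system. Of its markers, 20 of 23 neuronal and 12 of 12 glial genes lay above the median cluster mean. Below that mean lay 7953 of all 19938 genes. The same held for 3 of 10 smooth muscle, 2 of 10 fibroblast and 0 of 6 interstitial cell of Cajal genes. A value above the median is not a detection call.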

How the data were processed

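Total RNA of 6 enterosphere samples was measured on 6 whole-transcript GeneChips (Mouse Gene ST 1.0), 1 per sample. The authors deposited log2 values from RMA in Partek Software 6.6: background correction, quantile normalization and summary per transcript cluster. The sources used here name no build or annotation version. Quantile normalization hides a change shared by most transcripts. Array values carry no counts, so precision rests on the number and spread of arrays.

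Symbols came from the platform's annotation. Of 35556 clusters, 21789 carried 1 symbol, and where a gene had several, the cluster with the highest mean stood for it. Groups came from the labels. They do not say that replicates were separate cultures, although the study's methods speak of independent experiments. If they were not, p-values measure only the spread between these samples, which may be technical. Differentiation was set against proliferation with lmFit and eBayes of limma 3.58.1 in R 4.3.3 over all clusters, without a filter, two-sided, and intervals are 95% intervals from that fit. The steps were tested on simulated data. Promoters came from RefSeq (GRCm38.p6). Tables and plots were made in Python 3.11.15 with pandas 2.3.3 and matplotlib 3.10.9.

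The 10 genes and the lists (family relatives, other enteric neural crest and progenitor genes, intermediate filaments, catecholamine genes, neurons, enteric glia, mitosis, smooth muscle, interstitial cells of Cajal, fibroblasts, endothelial, macrophage, epithelial and mesothelial cells) were chosen with earlier results of these data known. Named were the 10 genes, their relatives, up to 4 called genes with the largest change per list, and the 3 genes closest in pattern to a called gene. Uncalled genes named from other lists (vimentin, Nefh, Th, Dbh, Emcn and Lyz2) were picked after their values had been seen. So were S100b, Cnn1 and Ndc80, called genes beyond the 4 per list. Motifs were also chosen after the results. Alternatives were a replicate block, robust limma-trend, cyclic loess, median centring, a filter on dim clusters, clusters with 1 symbol, array weights, each array left out, gene means over clusters, and the methods' t-test at its thresholds (unadjusted, at least 1.5-fold) and after adjustment.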

Additional observations from a re-analysis of the deposited data

How the results depend on the processing

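Nes rose under every alternative run, with log2 fold changes between 1.24 and 1.35. The number of the 10 genes past the test was 1 in all settings except clusters with 1 gene symbol (2), gene means over clusters (2), array weights (9) and arrays left out in turn (1 to 2). The additional gene was Tfap2a in the first 2 of these settings, where limma was refitted on fewer features, and Foxd3 without proliferation replicate 2. With the filter on dim clusters, also a refit on fewer features, Tfap2a did not pass (adjusted p = 0.0541 from limma). Array weights gave 7.45 to differentiation replicate 1 and 3.62 to proliferation replicate 3, against 0.397 to 0.491 for the other 4 arrays, so that fit rests mainly on 2 arrays. The log2 fold change of Sox11, -0.01, changed sign with array weights (0.01) and ran from -0.30 to 0.30 with arrays left out. Over all clusters 1459 passed, against 12721 with array weights, 664 with the replicate block, 253 with the Benjamini-Hochberg adjusted p of the methods' t-test and 294 to 1297 with arrays left out. The causes were not tested. Deviations of arrays with the same replicate number correlated at -0.003, 0.09 and -0.074, and not every array correlated best with its own number, so the numbers were not taken to pair the samples. With 3 arrays per group these correlations cannot show that pairing is absent. The study's methods describe independent experiments in which picked enterospheres went into either medium. Neither they nor the labels say which experiment a replicate number marks. With the replicate block Nes had an adjusted p of 0.0168 from limma, and no call among the 10 genes changed. In the other lists the block ended the calls of Cd9, L1cam, Ets1, Tubb3, Calb2, Cnn1, Smtn and Ndc80 (adjusted p from limma 0.0533 to 0.137). It left 1 called gene (against 4) among other enteric neural crest genes, 1 (against 3) among neuronal markers and 3 (against 5) among smooth muscle genes. With 3 arrays per group, precision was limited.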
